A study of Mus musculus with 12 samples.

Results

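The Hox genes of the mouse were examined in cortical neurospheres, each measured against RNA of whole embryos. Members were all probes whose annotated symbol was Hoxa, Hoxb, Hoxc or Hoxd followed by a number. This gave 35 of the 21738 probes on the array. They stand for 34 of the 15081 genes named by a probe, and for 34 of the 39 Hox genes in the RefSeq table: 10 in cluster A (chromosome 6), 7 in cluster B (chromosome 11), 8 in cluster C (chromosome 15) and 9 in cluster D (chromosome 2). Hoxb3 had 2 probes and each of the others 1.

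Hox genes encode homeodomain transcription factors that give cells of the embryo their position along the head-to-tail axis. Within a cluster, genes of low paralogue number are switched on early and act in the hindbrain and neck, and genes of high number act later in the trunk, limbs, genital region and tail. The forebrain, from which the cortex forms, lies ahead of the domain in which Hox genes are normally expressed, whereas a whole embryo holds all of the regions that express them.

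The 12 arrays held 4 groups of 3: control cultures at 24 h and at 108 h, and cultures given an adenovirus expressing CD133 (R-prominin1) at the same times. All were neurospheres, floating clusters of stem and progenitor cells, from mouse cortex at gestational day 12.5, kept without serum in basic FGF (20 ng/ml), EGF (20 ng/ml) and LIF (0.15 ng/ml). Strain and sex of the neurosphere donors were not given in the sources used here, and the reference came from C57/Bl6 embryos of day 12. The controls received growth medium only per their protocol text, although the design text speaks of GFP, so virus and prominin-1 cannot be told apart. The protocol text of the 24 h prominin cultures also says 108 h, and the titles were followed. Whether replicates came from separate cultures is not stated, and p-values here cover only the spread between these arrays, which may be technical.

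Values were log2 ratios of 2 channels, likely neurosphere (Cy5) over embryo (Cy3). That direction rests on the order in which the labels name the channels and on other genes. After centring, all 12 tested probes for embryonic tissues other than nervous were low (median −5.79) and all 4 erythroid probes were low (median −4.46), whereas the neural stem list, with 9 of 17 probes high and 5 low, had a median of 1.51, with Sox2 at 3.82 (SE 0.21) and a probe of Slc1a3 at 5.68 (SE 0.21). Sox1 (−4.90), Id3 (−3.27), Egfr (−2.20), Hes1 (−1.66) and Id1 (−1.17) of that list were low, so the direction leans mainly on the non-neural lists. Each array was centred on its median over 4532 probes measured everywhere, which had run from −2.59 to −0.84, so 0 means the median probe and not equal RNA in both channels. Neuronal genes had a median of −1.60 (1 high and 4 low of 8 probes), fibroblast and meningeal genes −4.81 (1 and 5 of 7), endothelial genes −0.97 (0 and 1 of 2) and leukocyte genes 0.70 (1 and 0 of 2). Without centring the high and low calls were 0 and 8 for neurons, 0 and 6 for fibroblasts, 0 and 1 for both endothelium and leukocytes, and 7 and 6 for neural stem genes. Prom1, the gene for prominin-1, was not higher past the threshold in either prominin group. Its difference was −2.23 (SE 0.95, limma adjusted p = 0.998) at 24 h and 2.58 (SE 0.87, limma adjusted p = 0.717) at 108 h, so this gene gives no check of the labels. In these bulk samples fewer cells of a type and less RNA per cell cannot be told apart.

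Many Hox cells carried no measurement. An exact 0 filled 159 of the 420 Hox cells (37.9%), against 28.3% over all probes, and the top code of 16.61 filled 9 (2.14% against 3.66%). The labels do not say what either code means. Both were treated as missing, and the table holds no value below −10. At 24 h zeros took 101 of 210 Hox cells (48.1%, all probes 32.3%) and at 108 h 58 of 210 (27.6%, all probes 24.2%). An array held 11 to 20 Hox zeros at 24 h and 7 to 12 at 108 h, ranges that overlapped. Control and prominin arrays had like shares, 37.1 and 38.6%. Counted over probes, the Hox share was above that of all probes on every array but prominin 108 h replicate 2. The plot of zeros by array does not show this, since it divides the zeros by numbers of genes. Ratios of small whole numbers were taken as a possible mark of dim spots, which was not checked against intensities. Such ratios made up 48.5% of the measured Hox values at 24 h and 5.30% at 108 h, close to 44.8 and 6.06% over all probes. The single values given below are not marked for this.

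**Figure D1:**
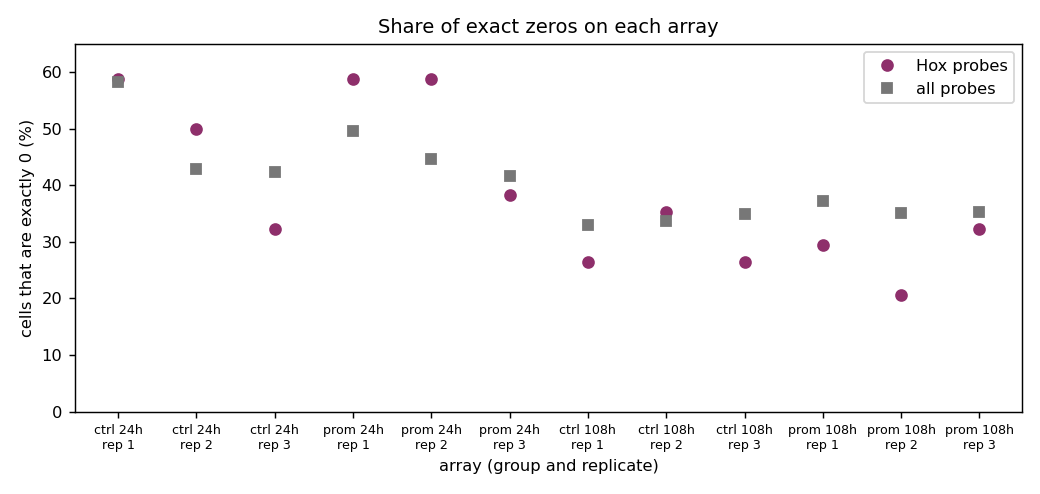
Exact zeros (vertical axis) on each of the 12 arrays (horizontal axis), for the 35 Hox probes (circles) and for all 21738 probes (squares). The zeros are drawn as a percent of the number of genes, 34 and 15081, and not of probes. Both sets therefore stand above their share of cells, the squares by much more, so circles and squares cannot be compared. Counted over probes, zeros took 48.1% of Hox cells at 24 h and 27.6% at 108 h.

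Zeros were unevenly spread over the family, and coverage was uneven over all probes too. Of 21727 probes with a value, 4532 were measured on all 12 arrays (2 Hox probes) and 4885 on 1 to 5 (10 Hox probes). Hoxa9 and Hoxb13 had none (0%), and Hoxb5, Hoxc13 and Hoxd13 had 1 each (8.33%). Hoxa4, Hoxa5, Hoxa11, Hoxc8 and Hoxd10 had 2 each (16.7%), Hoxa10 and Hoxc4 had 3 (25%), and Hoxd3 and Hoxd12 had 4 (33.3%). Hoxa3, Hoxa13, Hoxb6, Hoxd11 and 1 probe of Hoxb3 had 5 (41.7%). Hoxa6, Hoxa7, Hoxb7, Hoxb9, Hoxc5, Hoxc9, Hoxd1, Hoxd9 and the other probe of Hoxb3 had 6 (50%). Hoxa2, Hoxb4, Hoxc10, Hoxc12, Hoxd4 and Hoxd8 had 7 (58.3%), and Hoxc6 had 11 (91.7%), its single value being −0.86. By paralogue number, the 4 probes of group 13 had the fewest zeros (14.6%) and the 3 of group 6 the most (61.1%). By cluster, A had 31.7%, B 37.5%, C 44.8% and D 38.9%.

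Levels of the 35 probes lay on both sides of the median probe. The mean over the arrays on which a probe was measured was below 0 for 11 probes and above it for 24, with a median of 0.31, whereas all probes had a median of 1.02 (27.2% below 0). Without centring, 30 of the 35 Hox means lay below equal signal in both channels (all probes 66.6%), with a median ratio of −1.28 (all probes −0.58). Probes measured on few arrays had higher centred values throughout the table, so the family was set beside all probes of like coverage. The Hox median was lower in each class: 0.59 against 1.72 for probes measured on 1 to 5 arrays (10 Hox probes), 0.41 against 1.37 on 6 to 8 arrays (13), −0.57 against 0.50 on 9 to 11 arrays (10) and −1.12 against 0.05 on all 12 (2 probes). These are descriptions with no test. On single arrays the median of the measured Hox probes lay under that of all measured probes on 11 of 12, prominin 108 h replicate 2 being the exception.

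**Figure D2:**
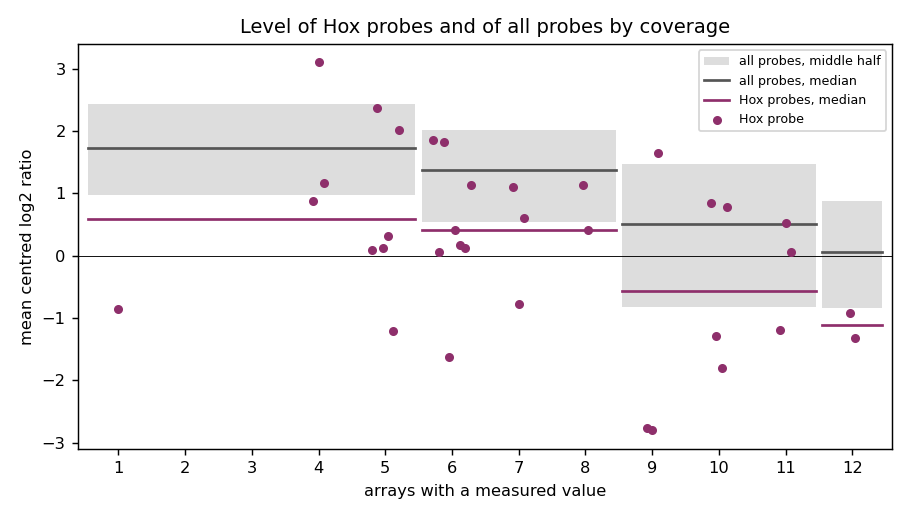
Mean centred log2 ratio (vertical axis) against the number of arrays with a measured value (horizontal axis). Points are the 35 Hox probes, purple lines their median in each class of coverage, dark lines the median and grey boxes the interquartile range of all probes. The Hox median lay below that of all probes in every class.

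A probe was tested where every group held at least 2 values, which 9 of the 35 Hox probes and 9155 probes in all met: Hoxa4, Hoxa5, Hoxa9, Hoxa11, Hoxb5, Hoxb13, Hoxc13, Hoxd10 and Hoxd13. The first test asked whether a level, taken as the mean of the 4 group means, differed from the median probe. It does not contain the spread of the reference, which was 1 RNA on every array. By limma with Benjamini-Hochberg adjustment, Hoxa4, Hoxa5, Hoxa9, Hoxb5 and Hoxb13 were low, none was high and 4 did not pass. Of all probes 55.8% were called, 25.5% low and 30.4% high. The median over the 9 was −0.92 and that of all probes tested 0.23.

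Among the trunk genes of cluster A, Hoxa9, which acts in the trunk skeleton and in blood stem cells, was the most evenly measured Hox gene. In controls it lay at −0.92, −0.60 and −1.75 at 24 h and −0.78, −0.68 and −0.85 at 108 h, and in prominin cultures at −0.62, −1.41 and −1.46 at 24 h and −0.64, −0.73 and −0.56 at 108 h. All 12 arrays were below the median probe, and the groups overlapped at 24 h and at 108 h. The level was −0.92 (SE 0.19, limma adjusted p = 0.00159), or 1.89-fold below the median probe. Against the reference itself, without centring, the level of Hoxa9 was −2.52 (SE 0.19), or 5.72-fold lower. Part of that is shared by the arrays as a whole, since the median tested probe was then at −1.36.

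Hoxb13, a tail and prostate gene at the far end of cluster B, was the other member measured on every array. In controls it lay at −1.86, −1.73 and −0.26 at 24 h and −3.95, −1.48 and −3.45 at 108 h. In prominin cultures it lay at 0.21, −2.47 and −0.25 at 24 h and −0.17, −1.77 and 1.33 at 108 h. Low values were found on 10 of 12 arrays, and both high values came from prominin cultures. The level was −1.32 (SE 0.36, limma adjusted p = 0.00867).

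Among the central genes, Hoxa5, needed for lung and for patterning of the neck and upper trunk, had the lowest level of the tested members. In controls it was measured at 0.12 and −4.44 at 24 h and at −1.41, −1.30 and −1.72 at 108 h. In prominin cultures it was measured at −2.48 and −1.89 at 24 h and at 0.77, −0.73 and −5.04 at 108 h. The spread within control 24 h and prominin 108 h was wide, and 8 of 10 values were low. The level was −1.87 (SE 0.60, limma adjusted p = 0.0245).

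Its neighbour Hoxa4, a gene of hindbrain and neck, lay at −0.62, −1.07 and −2.44 in controls at 24 h and at 0.10 and −0.33 at 108 h. In prominin cultures it lay at −2.38, −0.67 and −0.75 at 24 h and at −4.82 and 0.08 at 108 h. Of its 10 values 8 were low, and 1 prominin 108 h array was far below the rest. The level was −1.28 (SE 0.46, limma adjusted p = 0.0398).

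Hoxb5, the cluster B paralogue of Hoxa5 and a gene of vagal neural crest, lay at 0.24, 0.54 and −1.70 in controls at 24 h and at −3.49, −2.13 and −0.86 at 108 h. In prominin cultures it lay at −2.94 and 0.75 at 24 h and at −0.04, −0.83 and −2.65 at 108 h. All 6 values at 108 h were low, whereas the 24 h values fell on both sides of 0. The level was −1.18 (SE 0.43, limma adjusted p = 0.0372).

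The 4 members that did not pass were all posterior. Hoxd13, a gene of digits and genital region, lay at −0.44 and 0.55 (control 24 h), −0.62, −0.60 and −1.01 (prominin 24 h), 0.93, −0.14 and −0.42 (control 108 h) and 2.00, 1.30 and −0.94 (prominin 108 h), a level of 0.05 (SE 0.30, limma adjusted p = 0.886). Its mean lay near the median probe, and single values ran from −1.01 to 2.00. Hoxc13, which acts in hair and nails, lay at −1.25, −0.12 and −0.24 (control 24 h), 1.96, 2.48 and −0.01 (prominin 24 h), 0.60, 0.78 and 1.00 (control 108 h) and −0.59 and 1.17 (prominin 108 h), a level of 0.51 (SE 0.29, limma adjusted p = 0.16). The control 24 h arrays held 3 of its 5 low values.

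Hoxd10, a gene of lumbar spinal cord and limb, lay at 1.02 and −0.90 (control 24 h), 2.23 and 0.34 (prominin 24 h), 0.94, −0.37 and 0.31 (control 108 h) and 3.75, 2.62 and −2.21 (prominin 108 h), a level of 0.76 (SE 0.56, limma adjusted p = 0.271). Hoxa11, needed for forearm and kidney, lay at −0.28, 2.26 and 1.15 (control 24 h), 1.88 and 0.46 (prominin 24 h), 6.77, 1.87 and −1.17 (control 108 h) and 2.52 and −6.94 (prominin 108 h), a level of 0.62 (SE 0.97, limma adjusted p = 0.602). Both 108 h groups of Hoxa11 were spread widely. Against the reference, without centring, all 4 had negative levels: Hoxd13 −1.52 (limma adjusted p = 0.00125), Hoxc13 −1.15 (0.00603), Hoxd10 −0.79 (0.22) and Hoxa11 −1.01 (0.364). Then 7 of the 9 members were called low and 0 high, where 67.9% of all probes were called, 61.9% low and 6.01% high, and the median of the tested probes was −1.36.

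**Figure D3:**
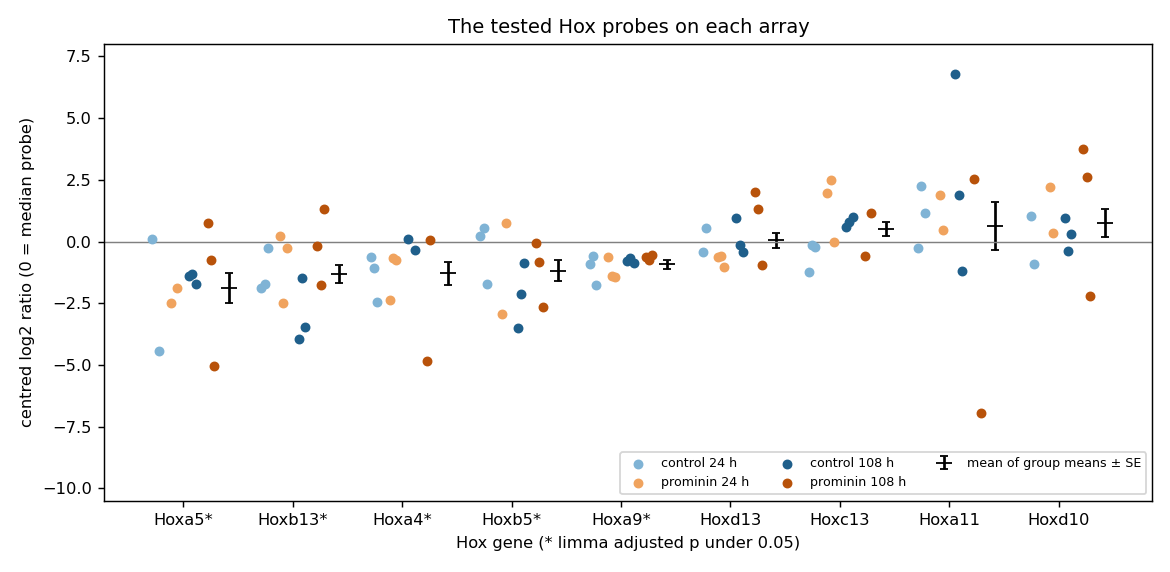
Centred log2 ratio (vertical axis, 0 is the median probe) of the 9 tested Hox probes on each array, coloured by group, ordered by level. The dash and bar at the right of each gene are the mean of the group means and its standard error. All 12 points of Hoxa9 lie below 0.

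The low calls of Hoxa9 and Hoxb13 held in all 22 alternatives of processing tried, leave-one-array-out included. Those of Hoxa5, Hoxb5 and Hoxa4 were past the threshold in 16 of 21, 10 of 20 and 9 of 20, always with a negative level. 2 probes were called low without control 24 h replicate 3, and 3 without any 1 of the prominin 24 h arrays or control 108 h replicate 1. Hoxc13 passed as high without prominin 24 h replicate 3 (0.69, limma adjusted p = 0.04999) and Hoxd10 without prominin 108 h replicate 3 (1.21, limma adjusted p = 0.0173).

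RefSeq (GRCm38.p6) held 22 promoters for 20 of the 34 genes. The 250 bases before the start are shown for Hoxa9, Hoxa5 and Hoxd13. The first 2 were low, and Hoxd13 had a level near the median probe after centring but was low without it (−1.52). Capitals mark matches, on either strand, to TATAAA as in TATA boxes, to CCAAT as in CCAAT boxes, to TTTATG as in sites of caudal-type factors and to AGGTCA as in sites of nuclear receptors. Matches may overlap.
Hoxa9, chr6:52227371-52227620, minus strand: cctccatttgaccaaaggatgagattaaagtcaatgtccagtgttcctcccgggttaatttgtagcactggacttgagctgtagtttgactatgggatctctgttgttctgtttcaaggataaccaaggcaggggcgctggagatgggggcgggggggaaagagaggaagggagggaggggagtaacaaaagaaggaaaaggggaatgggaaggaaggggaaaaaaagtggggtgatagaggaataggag
Hoxa5, chr6:52204588-52204837, minus strand: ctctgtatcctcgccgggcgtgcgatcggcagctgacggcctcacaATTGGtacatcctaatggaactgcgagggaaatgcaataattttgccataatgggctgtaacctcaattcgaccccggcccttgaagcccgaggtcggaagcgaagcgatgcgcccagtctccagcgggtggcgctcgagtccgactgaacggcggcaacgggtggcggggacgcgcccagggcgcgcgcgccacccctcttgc
Hoxd13, chr2:74667975-74668224, plus strand: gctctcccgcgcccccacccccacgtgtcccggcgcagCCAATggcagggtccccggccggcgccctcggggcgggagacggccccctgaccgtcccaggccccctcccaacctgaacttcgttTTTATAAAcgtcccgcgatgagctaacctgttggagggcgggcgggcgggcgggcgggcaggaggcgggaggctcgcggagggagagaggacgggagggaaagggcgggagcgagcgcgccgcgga
The Hoxa9 window held 3 CpG dinucleotides at 49.6% G+C and no match. That of Hoxa5 held 28 CpG at 63.6% and 1 CCAAT match. That of Hoxd13 held 31 CpG at 74.4%, 1 CCAAT match and 2 overlapping TATAAA matches on opposite strands. The Hox promoters had a median of 13 CpG (6 over all 32851 promoters), with a range of 2 to 35. CCAAT was found in 12 of 22 (54.5%, all promoters 33.9%), AGGTCA in 6 (27.3%, all 14.0%), TTTATG in 4 (18.2%, all 10.8%) and TATAAA in 3 (13.6%, all 12.4%). These matches are descriptions and were not set against the levels.

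The other 26 Hox probes had fewer than 2 values in some group. Under the looser filter of at least 1 value in every group, 22 Hox probes were tested, of which 5 were called low and 1 high by limma; of all 15907 probes tested so, 44.7% were called, 16.7% low and 28% high. Hoxc4 (−2.89, SE 0.63, limma adjusted p = 0.00665) and Hoxa10 (−2.27, SE 0.77, limma adjusted p = 0.0411) joined Hoxa5, Hoxa9 and Hoxb13 as low, and Hoxa6 (1.99, SE 0.57, limma adjusted p = 0.036) was high. Hoxb5 (limma adjusted p = 0.0505) and Hoxa4 (0.0535) then missed the threshold. Hoxc4, expressed from hindbrain to trunk, was below the median probe on all 9 arrays that measured it, at −5.52 to −0.45 (mean −2.81 ± 1.65, SD). Hoxa10, a gene of lumbar trunk and uterus, was below it on 8 of 9, at −7.52 to 0.46 (mean −2.77 ± 2.41). Their means were the lowest of the family, but control 24 h held 1 value of Hoxa10 and control 108 h 1 of Hoxc4.

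Several other central and posterior genes had means above the median probe, as most probes of like coverage did. The interquartile range of all probes was 0.98 to 2.43 on 1 to 5 arrays and 0.55 to 2.02 on 6 to 8. On 9 to 11 arrays it was −0.82 to 1.47, and the mean of Hoxc8 lay above that range. Hoxc8, which patterns the thoracic region, had a mean of 1.65 ± 1.85 (SD, 9 arrays, −1.36 to 4.37, 7 of them above 0). Hoxa6 had 1.82 ± 1.27 (6 arrays, 0.40 to 3.61), Hoxa7 2.37 ± 1.87 (5, 0.47 to 5.36), Hoxa13 1.86 ± 1.75 (6, −0.60 to 4.04), Hoxd9 2.02 ± 1.63 (5, 0.62 to 4.28) and Hoxc12 3.10 ± 2.29 (4, 1.03 to 6.35). The posterior genes Hoxd12 (1.14, 8 arrays, −0.66 to 4.28), Hoxc9 (1.14, 6 arrays, −0.12 to 2.55) and Hoxd11 (0.61, 7 arrays, −1.07 to 4.28) had lower means. Only Hoxa6, Hoxa7, Hoxa13, Hoxc12 and Hoxd9 of the family had a mean above equal signal without centring (Hoxa6 0.14, Hoxa13 0.19, Hoxd9 0.36, Hoxa7 0.85, and Hoxc12 above these), and each was measured on 6 arrays or fewer.

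Anterior genes had values on both sides of the median probe. Hoxa2, the gene of the second pharyngeal arch, had a mean of 0.09 (5 arrays, −3.18 to 1.70), Hoxa3, of the third arch, 0.06 (6, −2.36 to 2.20), Hoxd1 0.31 (5, −1.14 to 3.02) and Hoxd3 0.40 (8, −3.42 to 2.15). The 2 probes of Hoxb3 disagreed: 1 had a mean of −1.64 ± 2.03 (6 arrays, 5 low) and the other 1.10 ± 1.67 (7 arrays, −2.05 to 3.55). Of the central genes still to name, Hoxb6 lay at −2.29 to 0.57 (mean −0.78, 7 arrays, 6 low), Hoxb7 at −1.32 to 4.38 (mean 0.41, 6 arrays) and Hoxc5 at −1.60 to 1.17 (mean 0.11, 6 arrays). Hoxd8 (−1.21, 5 arrays), Hoxb4 (0.87, 4 arrays) and Hoxd4 (1.16, 4 arrays) were sparser. The posterior Hoxb9 lay at −2.59 to 2.05 (mean 0.17, 6 arrays), and Hoxc10 had a mean of 0.12 (5 arrays).

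Arranged by position, no steady gradient was seen. Paralogue groups 1 to 3 had a median of 0.20 (6 probes), groups 4 to 8 −0.33 (14 probes, 7 below 0) and groups 9 to 13 0.61 (15 probes, 3 below 0). Group 5 was the lowest with more than 2 probes (−1.19, Hoxa5, Hoxb5 and Hoxc5). Clusters A, B, C and D had medians of 0.07, −0.30, 0.32 and 0.61. Over the 25 probes on 6 or more arrays the cluster medians were −0.43, −0.78, 0.53 and 0.61, and those of the anterior, central and posterior groups 0.23, −0.78 and 0.57. Over the same 25 probes, paralogue number and level had a Pearson r of 0.29 and a Spearman rho of 0.31. These points share their arrays. Over all 35 probes the level fell with the number of arrays measured (r = −0.37). The number of zeros fell with paralogue number (r = −0.33), and how coverage bears on the relation was not tested.

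**Figure D4:**
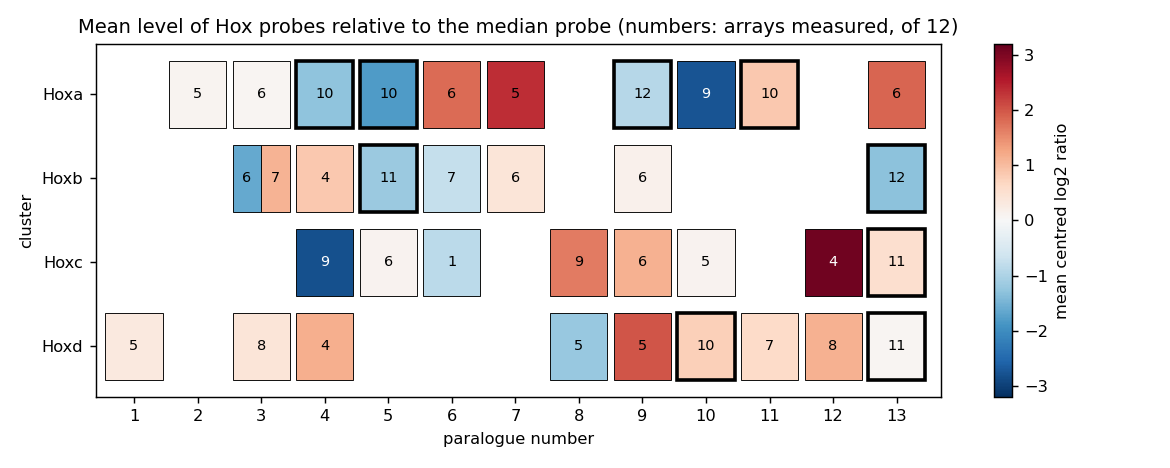
Hox genes by paralogue number (horizontal axis) and cluster (vertical axis), coloured by mean centred log2 ratio, blue below and red above the median probe. Numbers give the arrays measured of 12, and thick frames the 9 tested probes; Hoxb3 has 2 probes. The darkest blue cells are Hoxa10 and Hoxc4, measured on 9 arrays each.

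The prominin comparison at 24 h asked whether Hox levels differed between cultures given the virus and controls. No Hox member passed (limma, 0 of 9; 0% of all 9155 probes), and 1 had an unadjusted p under 0.05, where 4.58% of all probes did. That was Hoxc13, which averaged 1.48 ± 1.31 (SD, n = 3) in prominin cultures and −0.54 ± 0.62 (n = 3) in controls, or 2.01 higher (SE 0.78; limma adjusted p = 0.998). Groups of Hoxc13 did not overlap, nor did those of Hoxd13 (−0.80, SE 0.89). That was the case for 2 of 9 members and 16.5% of all probes. Hoxd10 had a difference of 1.22 (SE 1.73) and Hoxb5 one of −0.78 (SE 1.28; 1.06 without prominin 24 h replicate 2). The median over the members was 0.11 and over all probes −0.10.

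At 108 h again 0 of 9 members passed (0% of all probes), with 1 at an unadjusted p under 0.05 (all probes 6.82%). Hoxb13 averaged −0.20 ± 1.55 (SD, n = 3) in prominin cultures and −2.96 ± 1.31 (n = 3) in controls, or 2.76 higher (SE 1.01; limma adjusted p = 0.717). Groups overlapped for Hoxb13 as for the other 8 members (15.8% of all probes did not overlap). Hoxb5 had a difference of 0.98 (SE 1.14), Hoxa11 one of −4.70 (SE 2.74) and Hoxa4 one of −2.26 (SE 1.44). The last pair rested on 1 array each: Hoxa11 lay at 0.03 without prominin 108 h replicate 3, and Hoxa4 at 0.19 without prominin 108 h replicate 1. The median was 0.13 (all probes 0.00).

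Whether the prominin difference changed between the times was tested by the interaction, which 0 of 9 members passed (0% of all probes; 0 members and 5.95% of all probes at an unadjusted p under 0.05). The values were 2.31 (SE 1.43) for Hoxb13, 1.46 (SE 1.20) for Hoxd13, −2.52 (SE 1.17) for Hoxc13 and −2.37 (SE 1.85) for Hoxa4, with limma adjusted p from 0.817 to 0.873. Without prominin 108 h replicate 1, Hoxa4 lay at 0.08.

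From 24 h to 108 h no Hox member passed in controls (limma, 0 of 9; 0% of all probes) or in prominin cultures (0 of 9; 0.0218% of all probes), and none had an unadjusted p under 0.05 (6.94 and 8.82% of all probes). In controls Hoxc13 had a difference of 1.33 (SE 0.78) and Hoxa4 one of 1.27 (SE 1.31), each with groups that did not overlap (2 of 9 members, 18.6% of all probes; in prominin cultures 0 of 9 and 19.6%). Hoxb5 had a difference of −1.85 (SE 1.14) and Hoxb13 one of −1.68 (SE 1.01). In prominin cultures the values were 1.53 (SE 0.80) for Hoxd13, 0.52 (SE 0.53) for Hoxa9, −1.19 (SE 0.87) for Hoxc13 and −3.38 (SE 3.00) for Hoxa11, the last being 1.35 without prominin 108 h replicate 3. The limma adjusted p of the 9 members was 0.768 to 0.996 in controls and 0.631 to 0.991 in prominin cultures. With SEs of 0.53 to 3.00 for the members in prominin cultures, changes of the size seen could not be told from the spread between arrays, and the 5 comparisons share their arrays.

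Genes that act with or on the Hox genes were read in the same level test, from lists that, like the members, were drawn up with earlier results known. Of the cofactors, the TALE homeodomain proteins that bind DNA beside Hox proteins, 3 of 9 genes were tested. Meis3, a cofactor of hindbrain patterning, was low at −2.72 (SE 0.31, limma adjusted p = 6.71e-05), Pbx3 was high at 0.85 (SE 0.31, limma adjusted p = 0.0355; −0.75 without centring), and Meis2 lay at 1.00 (SE 0.42). Without centring 0 cofactor probes were high and 1 was low. Of 12 probes for upstream regulators and retinoic acid signalling, which sets Hox expression in the hindbrain, 1 was high and 2 were low (1 and 4 without centring). Egr2 (Krox20), which drives Hoxa2 and Hoxb2 in the hindbrain and is also an immediate early gene, was at 7.65 (SE 0.40, limma adjusted p = 8.45e-08). The retinoic acid receptor gene Rarg was at −1.90 (SE 0.44), and Cyp26a1, which encodes an enzyme that breaks down retinoic acid, at 1.10 (SE 0.44; not passed). The receptor gene Rara had 1 probe at −5.22 (SE 0.61) and others at 0.37 to 1.35 that did not pass, so its probes disagreed.

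Of 13 probes for Polycomb and trithorax proteins, which keep Hox clusters silent or active, 1 was high and 6 were low (median −0.70; without centring 0 and 12, median −2.30). Phc2 lay at −3.25 (SE 0.24), Ezh2, the histone methyltransferase of Polycomb, at −1.70 (SE 0.34) and Rbbp5 at −1.43 (SE 0.25), all low, and the trithorax methyltransferase gene Kmt2a was high at 1.49 (SE 0.29; −0.14 without centring).

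Transcription factors of the head were read for contrast. Of 10 forebrain probes 5 were high and none low (median 1.00), but without centring 2 were high and 4 low (median −0.63). The high probes were those of Emx2 (4.03, SE 0.41), Lhx2 (2.48, SE 0.45), Six3 (1.38, SE 0.43, and −0.22 without centring) and Pax6. The Pax6 probes gave 7.75 (SE 0.81) and 1.13 (SE 0.42, and −0.52 without centring). Those that did not pass were Nr2f2 (0.87), Nkx2-1 (0.20), Nr2f1 (−0.04), Emx1 (−0.35) and Dlx5 (−0.35). Of 5 midbrain and hindbrain probes 1 was high (Pax5, 1.29, SE 0.25; −0.28 without centring) and 2 were low (Irx2, −3.41, SE 0.38; Irx1, −0.66, SE 0.22), and En1 lay at −0.22 (SE 0.24). Without centring 0 of these were high and 4 low. Of 6 probes for other patterning homeobox genes, Meox2 was high (2.13, SE 0.67) and Alx4 (−1.998, SE 0.38) and Msx2 (−1.40, SE 0.33) were low, with Nkx2-5 at −0.85 (SE 0.40); without centring 0 were high and 3 low. The median of −0.92 over the 9 tested Hox probes (0.31 over the means of all 35) lay between that of the forebrain factors and that of the embryo outside the nervous system (−5.79). Of the other lists only the neural stem list (1.51) lay outside that range, so the place is not particular to Hox genes. Endothelial genes (−0.97) and Polycomb and trithorax genes (−0.70) lay nearest to the Hox median. In the embryo outside the nervous system, a list also used above to read the direction of the ratio, Col1a1 lay at −6.20 (SE 0.34) and Twist1 at −5.20 (SE 0.33). Whether those tissues in the reference set the Hox ratios was not tested.

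**Figure D5:**
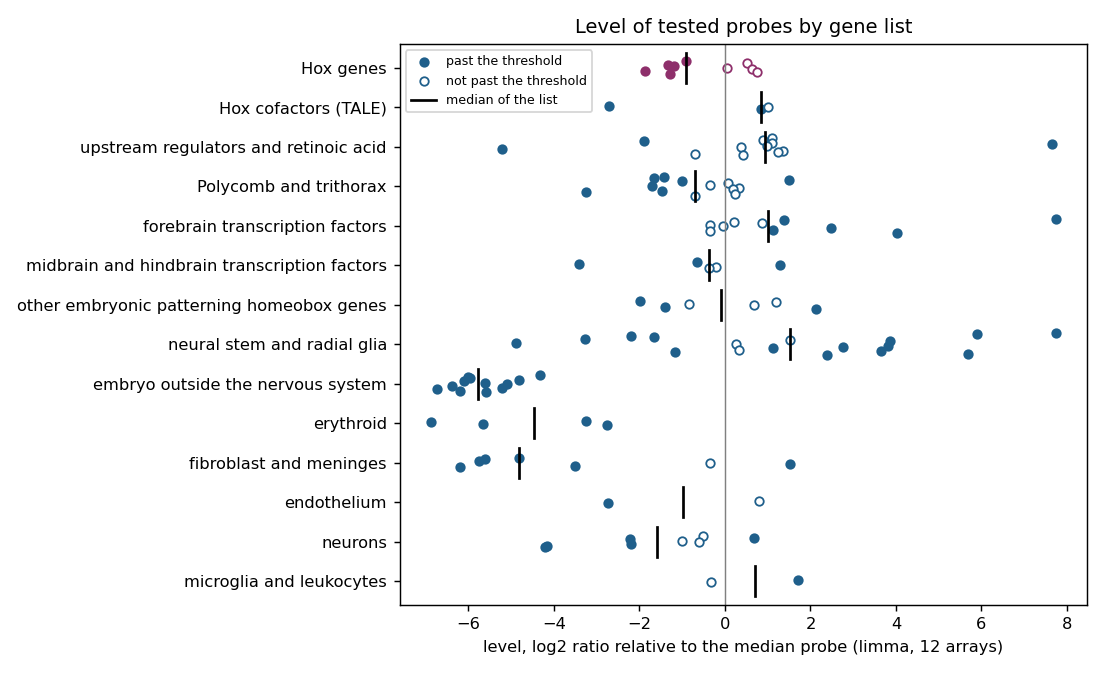
Level relative to the median probe (horizontal axis, log2) of each tested probe, by gene list. Filled circles passed the threshold, open circles did not, and black lines are list medians. The median of the 9 tested Hox probes lies at −0.92, that of the forebrain factors at 1.00 and that of the embryo outside the nervous system at −5.79.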

How the data were processed

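Values came from 1 deposited table of log2 ratios, 21738 probes on 12 two-colour arrays; how the authors made it, from scanner to normalization, is not given in the sources used here. Per the labels' protocols, sample RNA carried Cy5 and the embryo reference Cy3, with no dye swap, so dye bias cannot be told apart from the ratio. Groups came from the sample titles. Of the probes, 16620 had 1 gene symbol, 113 several and 5005 none; all 35 Hox symbols were the same in RefSeq. Small whole-number ratios were those within 0.0006 of the log2 ratio of whole numbers up to 10.

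Exact zeros and the top code were set to missing, and each array was centred. limma 3.58.1 (R 4.3.3) fitted 1 mean per group, with moderated variance, two-sided tests, Benjamini-Hochberg adjustment over 9155 probes and a threshold of 0.05, and was tested on simulated data. The reading of medians and codes, and so the centring, followed earlier work on these data. Probes of a gene were kept apart. Depth is unknown, and the number of arrays limits precision.

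The 35 Hox probes stood for 34 genes. The Hox members, gene lists and tests were chosen with earlier results of these data known. All Hox genes with a probe are named. In a comparison that none passed, the 2 members with the smallest p in each direction are named. Of each further list up to 4 genes by smallest p are named, with fewer for most lists of other cell types. The low genes of the neural stem list and the remaining tested forebrain factors are named too. Twist1 was added after its value was seen. Alternatives were centring, scaling, codes kept, small whole-number ratios left out, filters, probes averaged, no moderation, the replicate number as a block, only the groups compared, and leaving out each array.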

Additional observations from a re-analysis of the deposited data

How the results depend on the processing

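Beside the 5 Hox calls of the main test, all low, the count was 11 with the codes kept (2 low and 9 high of 35 probes, where a zero lies above the centre of each array). It was 3 with small whole-number ratios missing (4 probes tested), 2 on probes measured on all 12 arrays (2 tested) and 2 without moderation. Leaving out 1 array gave 2 to 5 calls. The 4 without prominin 24 h replicate 3 were 3 low and 1 high. The 5 without prominin 108 h replicate 3 were 4 low and 1 high. With at least 1 value per group the count was 6, 5 low and 1 high of 22 probes, and 3 of the 5 low were among the main calls. No alternative called a Hox probe in the other 5 comparisons (lowest limma adjusted p 0.178, for the interaction).

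Without centring, levels turned to −1.15 (Hoxc13), −1.52 (Hoxd13), −1.01 (Hoxa11) and −0.79 (Hoxd10), and with centring on all measured probes to −0.078 (Hoxc13) and −0.49 (Hoxd13). Leaving out 1 array gave −0.10 to 0.27 for Hoxd13 and −0.56 to 1.80 for Hoxa11. Hoxb5 turned at 24 h without centring (8.3e-04) and with the codes kept (0.042), and at 108 h without centring (−0.093), as did the Hoxd13 interaction (−0.20) and Hoxa9 with time in prominin cultures (−0.54). Over the arrays left out, Hoxb5 at 24 h ran from −2.63 to 1.06, Hoxa11 at 108 h from −9.43 to 0.031 and with time in prominin cultures from −8.10 to 1.35, Hoxa4 at 108 h from −4.71 to 0.19 and in the interaction from −4.82 to 0.080.

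Over the 9 tested Hox probes the mean over arrays of the median was −0.58 ± 0.44 (SD), and −2.18 without centring, −1.13 centred on all measured probes, −1.12 on all 12 arrays and 1.28 with the codes kept. The other lists are given likewise, first the main value, then without centring, then centred on all measured probes, unless named otherwise. Cofactors (0.21) gave −1.39, −0.35, −2.89 without small ratios and −0.044 with at least 1 value per group. Upstream regulators (0.45) gave −1.15, −0.10, −1.08 without small ratios, 3.48 on all 12 arrays and 1.31 with the codes kept. Polycomb (−0.72) gave −2.32 and −1.28, and forebrain factors (1.01) −0.59 without centring. Midbrain and hindbrain factors (−0.50) gave −2.10, −1.06 and, with the codes kept, 1.05. Other homeobox genes (−0.06) gave −1.66 without centring, 1.22 with the codes kept, 0.10 with at least 1 value per group, 2.13 on all 12 arrays and −0.27 to 0.16 leaving out 1 array. Centring on all measured probes moved the median tested probe from 0.23 to −0.32, and low calls from 45.6 to 67.3% of calls (91.2% without centring); the same 5 Hox probes were called low. The cause of these changes was not tested.

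Same-numbered arrays of different groups had deviations that correlated at −0.07 to 0.12, too low to take the numbers as pairs; that 9 of 12 arrays matched their own number best is a hint from the data, not the design. With the replicate block 4 Hox probes were called low (Hoxb5 adjusted p = 0.0667), and 0 in the other comparisons.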

Other observations

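Of the other transcripts of the Hox clusters, 3 had a probe that the naming rule left out, and all were sparse. Hoxd3os1, an opposite-strand transcript at Hoxd3, was measured on 5 arrays, at 0.96 to 5.21 (mean 2.20 ± 1.74, SD, relative to the median probe). Hoxa11os, the antisense partner of Hoxa11, was measured on 5 arrays, at −2.18 to 3.30 (mean 0.76 ± 2.09), and Hoxaas3, of cluster A, on 4, at −1.84 to 2.44 (mean 0.39 ± 1.92). Zeros filled 6, 7 and 6 of their 12 cells. None could be tested.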
